A study of Mus musculus with 12 samples.

Results

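Conventional dendritic cells (DCs) are built by a small set of lineage genes, and 10 of them were followed here: Irf8, Batf3, Batf, Nfil3, Irf4, Bcl6, Zbtb46, Spi1, Runx3 and Flt3. They were found by gene symbol in the deposited table, where each symbol matched a gene, and they are 10 of 55401 genes in the files. All 10 passed the filter on low counts, as did 44624 genes in all. The cells were migratory DCs, which carry antigen out of an organ to its lymph nodes, purified from the liver, pancreas or duodenum of B6 mice aged 6 to 8 weeks. No group carried a gene deletion, a transgene or a treatment in the labels. Each organ gave 4 libraries of polyA RNA, and each library pooled 2 mice, so a library is a pool and not an animal. Live CD45+ cells were sorted by CD11c and CD103, a high level of MHC class II, and the absence of lineage markers and of CD11b, which is the surface profile of type 1 conventional DCs (cDC1). The question was whether cells of that profile carry the same lineage program in each of the organs.

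As background, conventional DCs arise from bone marrow progenitors that read the cytokine FLT3L through the receptor FLT3. The type 1 branch depends on IRF8 and BATF3, which bind DNA together with Jun proteins, while the type 2 branch (cDC2) depends more on IRF4. Both IRF proteins bind weakly on their own and use partners, PU.1 (encoded by Spi1) at composite ETS-IRF sites and BATF-Jun pairs at AP-1 sites. IRF4 is also a factor of plasma cells, the antibody-secreting cells that are abundant in the gut wall.

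The libraries held between 220.9 and 356.1 M (mega) estimated counts. The summed level of 18 cDC1 markers was 3058 to 3615 TPM in liver, 2825 to 3101 TPM in pancreas and 1928 to 2939 TPM in duodenum. TPM, a share of all transcripts, is a level per transcript length, so it can be set between genes. The 10 T cell genes, in contrast, summed to 6.42 to 10.7 TPM over the 12 libraries. Lists of other cells were not all that low. The 14 macrophage and monocyte genes summed to 530 to 679 TPM in liver, 893 to 1024 TPM in pancreas and 421 to 592 TPM in duodenum, mostly Lyz2 and Cd68. The 10 genes of NK cells and ILCs (innate lymphoid cells) summed to 62.3 to 109 TPM over the libraries, mostly Klrk1. Not all cDC1 markers were high, since Cd207 averaged 0.238 TPM in duodenum and Cd8a 2.25 TPM in pancreas. Xcr1 and Clec9a, receptors that define cDC1, were at 126.3 to 163.5 and 213.3 to 272.2 TPM in liver, 82.7 to 97.8 and 174.9 to 205.5 TPM in pancreas, and 77.4 to 144.4 and 131.4 to 196.7 TPM in duodenum. Itgam, which encodes the excluded CD11b, stayed at 0.363 to 1.30 TPM over the 12 libraries. Immunoglobulin transcripts set libraries apart. Igkc, an antibody light chain, was above 1000 TPM in liver 2, pancreas 3, pancreas 4 and all 4 duodenum libraries, and at 0.112 to 2.73 TPM in the other 5. Results are also given without liver 2, pancreas 3 and pancreas 4. The duodenum libraries, at 5335 to 8895 TPM of Igkc, were kept, so immunoglobulin transcripts stayed on the duodenum side.

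The lineage genes spanned a wide range of levels, with the cDC1 factors Irf8 and Batf3 at the top and Irf4 at the bottom. Averaged over the 12 libraries, Irf8 was at 612 TPM, Batf3 at 171, Spi1 at 158, Flt3 at 92.0, Zbtb46 at 63.3, Batf at 17.4, Runx3 at 13.5, Bcl6 at 9.92, Nfil3 at 2.81 and Irf4 at 1.63. Irf8 ranked 202 of all genes by mean TPM, and Irf4 ranked 14206. In this order 3 neighbouring pairs had ranges over all libraries that did not overlap, namely Irf8 above Batf3, Zbtb46 above Batf, and Bcl6 above Nfil3. Batf3 was above Spi1 in 7 of 12 libraries, so that pair had no fixed order. Spi1 was above Flt3, and Flt3 above Zbtb46, within each of the 12 libraries although their ranges overlapped. Nfil3 was above Irf4 in 9 of 12 libraries, since in duodenum the means stood the other way round, at 2.54 TPM for Nfil3 and 3.36 TPM for Irf4.

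**Figure D1:**
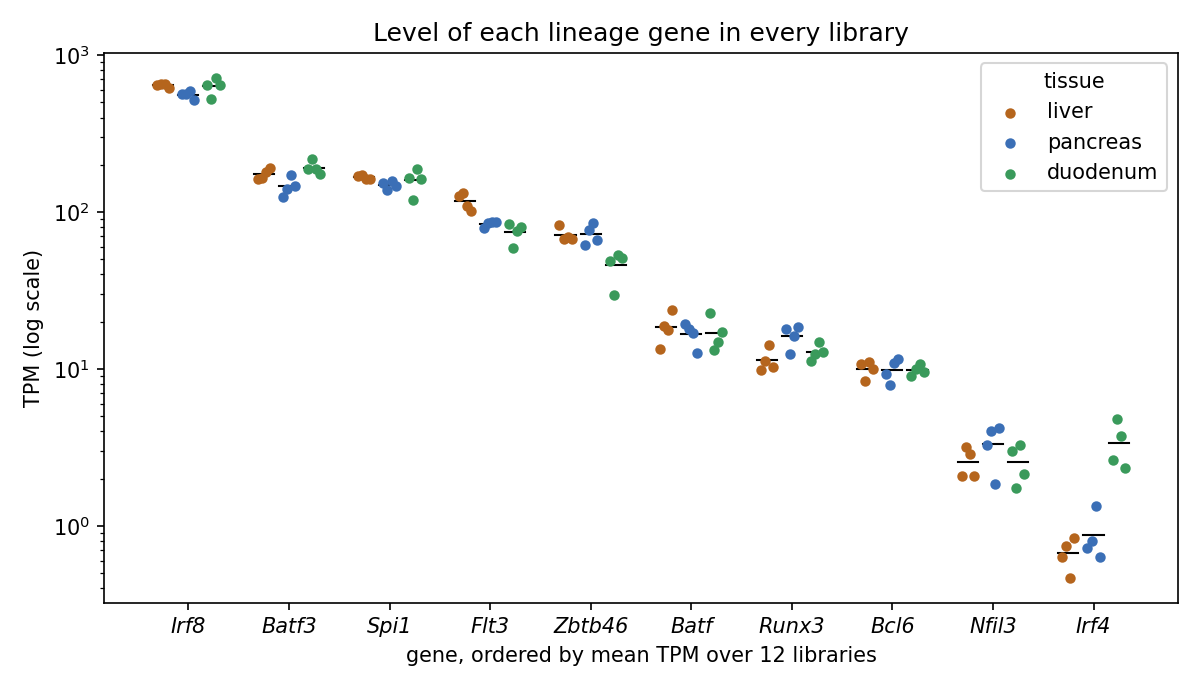
Each point is a library, placed by the level of the gene in TPM on a log scale, with liver, pancreas and duodenum side by side for each gene and a bar at the mean of 4 libraries. Genes run from the highest mean (Irf8, 612 TPM) to the lowest (Irf4, 1.63 TPM), and Irf4 in duodenum lies clear of liver and pancreas.

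Between organs, 1 of the 10 lineage genes passed the test. Against duodenum, Irf4 was lower in liver and lower in pancreas, while no lineage gene passed between liver and pancreas. A gene was called when its edgeR quasi-likelihood p, adjusted over all genes tested, was under 0.05. By that rule 7.32% of all genes were called in either direction in liver against duodenum, 7.70% in pancreas against duodenum and 1.11% in liver against pancreas. The shares called lower were 3.95%, 3.94% and 0.681% in that order. With a minimum mean of 1 CPM, 26.2%, 26.5% and 5.42% of the genes tested were called. Counts within the gene lists given later are to be read against these shares as well. Read against these shares, 1 of 10, 1 of 10 and 0 of 10 are near the background, so the counts are no result about the lineage genes as a set. At an unadjusted p under 0.05 the counts were 3, 3 and 2 of 10 for the comparisons in that order, against 19.1%, 19.0% and 9.01% of all genes. Between liver and pancreas, DESeq2 also called 0 of the 10 and limma on log2(TPM + 1) called 1, Flt3. The median log2 difference of the 10 genes was -0.14 in liver minus duodenum, -0.08 in pancreas minus duodenum and -0.01 in liver minus pancreas, where all genes had medians of 0.10, 0.09 and 0.01. These log2 differences come from counts scaled by TMM, a scaling on the bulk of genes, and can differ in sign from a difference of mean TPM when the gap is small. Liver and pancreas share the duodenum libraries as their comparator, so the 2 differences of a gene are not independent.

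**Figure D2:**
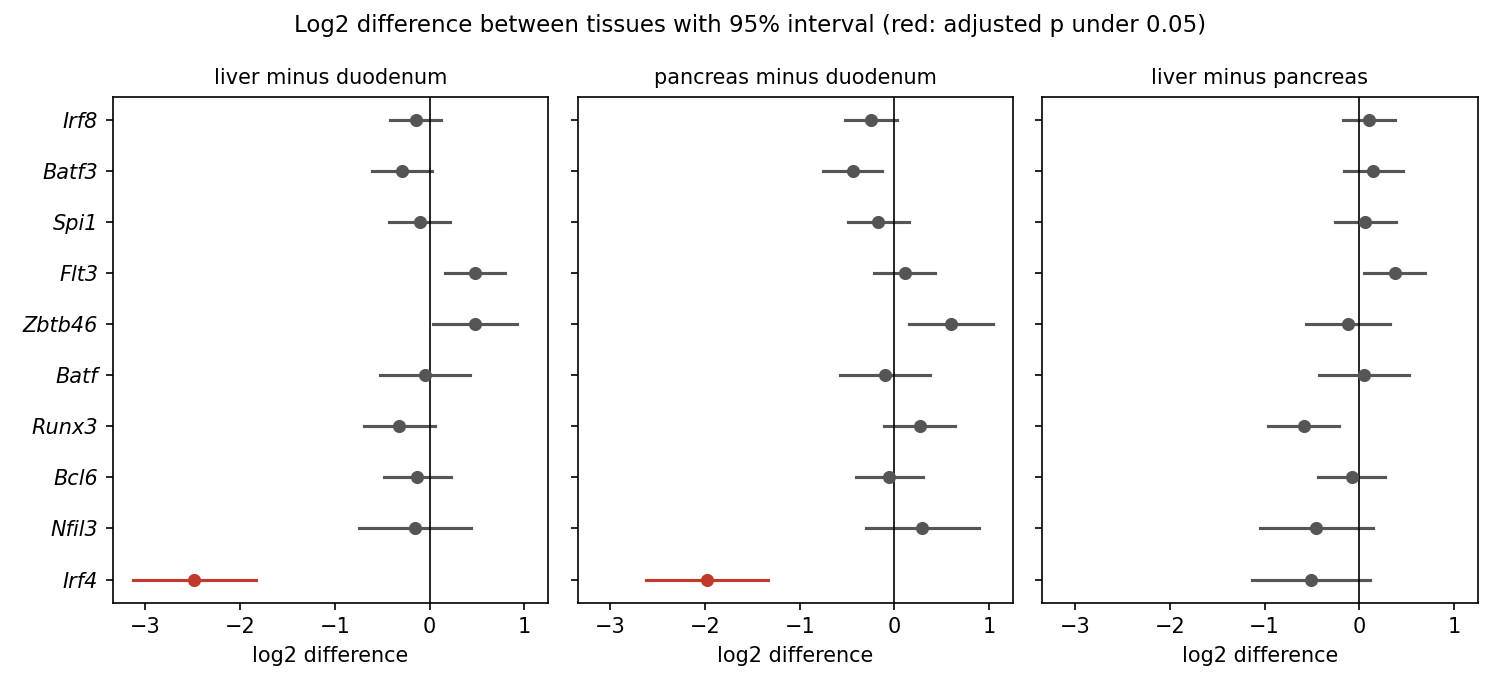
Points give the log2 difference between organs from the edgeR model, lines its 95% interval, with genes down the page and a panel for each comparison. Irf4 is the only gene marked as passing an adjusted p under 0.05, at -2.48 for liver minus duodenum and -1.98 for pancreas minus duodenum.

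Irf4 encodes the interferon regulatory factor that cDC2 need for their development and their migration to lymph nodes. It was at 0.631, 0.748, 0.467 and 0.831 TPM in the 4 liver libraries and at 0.718, 0.797, 1.33 and 0.633 TPM in the 4 pancreas libraries, against 2.63, 4.77, 3.72 and 2.33 TPM in the 4 duodenum libraries. All liver and pancreas libraries lay under the lowest duodenum library, duodenum 4, and duodenum 2 was the highest. Behind these levels stood 327.9 to 617.8 estimated counts in liver, 423.5 to 940.0 in pancreas and 1577 to 4781 in duodenum. The log2 difference was -2.48 ± 0.30 in liver minus duodenum (SE, 95% interval -3.13 to -1.83), that is 5.59-fold lower in liver, with an edgeR adjusted p of 0.00014. In pancreas minus duodenum it was -1.98 ± 0.30 (95% interval -2.62 to -1.34), or 3.94-fold lower in pancreas, with an edgeR adjusted p of 0.00071. Liver minus pancreas was -0.51 ± 0.29 (95% interval -1.13 to 0.12, edgeR adjusted p = 0.710), and those ranges overlapped. Duodenum 2, the library highest in Irf4, was the lowest of the series in summed cDC1 markers, at 1928 TPM. It was also the highest in summed B cell genes, at 19.7 TPM. Without duodenum 2, Irf4 was at log2 -2.38 in liver (edgeR adjusted p = 0.000258) and -1.88 in pancreas (edgeR adjusted p = 0.00114), both minus duodenum. What sets duodenum 2 apart was not tested. In bulk RNA of sorted cells, fewer cells that carry Irf4 and less Irf4 per cell cannot be told apart.

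The start of Irf4 is shown because it is the gene that differed between organs. The 250 bases before its RefSeq start lie at chr13:30748983-30749232 on the plus strand of GRCm38.p6, the build of the sequence table, and not of the authors' files, whose notes name GRCm39. The 250 bases before the RefSeq start of Zbtb46 (chr2:181424389-181424638, minus strand, same build) are set beside it, since they hold a match to a motif of the BATF-Jun partners. Whether either window acts as a promoter in these cells was not tested.
Irf4: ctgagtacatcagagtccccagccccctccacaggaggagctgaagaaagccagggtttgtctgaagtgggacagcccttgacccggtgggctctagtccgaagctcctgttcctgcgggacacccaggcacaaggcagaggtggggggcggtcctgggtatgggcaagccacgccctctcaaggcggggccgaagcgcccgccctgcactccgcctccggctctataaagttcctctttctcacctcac
Zbtb46: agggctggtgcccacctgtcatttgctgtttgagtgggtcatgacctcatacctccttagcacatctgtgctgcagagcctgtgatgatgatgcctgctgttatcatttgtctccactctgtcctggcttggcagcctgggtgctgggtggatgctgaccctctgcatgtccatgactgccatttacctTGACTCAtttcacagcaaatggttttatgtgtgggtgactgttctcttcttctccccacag
Capitals mark a match to TGANTCA, the AP-1 motif bound by BATF-Jun pairs, which begins 61 bases before the RefSeq start of Zbtb46. On both strands of 12 such windows, which cover 9 of the 10 genes, 5 motifs were searched. They were TGANTCA (AP-1), a pair of IRF half-sites (GAAA, any 2 bases, GAAA), an ETS-IRF composite (GGAA, any 2 bases, GAAA, which shares its last letters with the IRF pair), TTANGTAA (NFIL3) and an NF-kB motif (GGGA, any 2 bases, TTCC). Apart from the Zbtb46 match, the search found an ETS-IRF composite 28 bases before the other start of Bcl6, and no match in the Irf4 window. Among 32851 windows of the same length, 6.75% held the AP-1 letters, 2.98% the IRF pair, 2.30% the composite, 2.06% the NFIL3 letters and 1.21% the NF-kB letters. A match or its lack describes the letters in the window and says nothing of binding.

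Transcripts of plasma cells, which also use Irf4, differed between the organs. Of 11 plasma cell genes, 7 were lower in liver and 7 lower in pancreas than in duodenum, none was higher, and their median log2 difference was -3.53 and -2.49. Their summed level was 151.9 to 1490 TPM in liver and 161.6 to 1762 TPM in pancreas, against 9750 to 14735 TPM in duodenum, and no gene of the list was at 0 in all libraries of an organ. In duodenum the sum was carried by Igkc and Igha, with means of 6900 and 4084 TPM. Where Igkc was low, the sum was mostly Ighm and Xbp1, which were not particular to duodenum. Ighm averaged 98.9, 158 and 110 TPM and Xbp1 59.4, 64.2 and 71.1 TPM in liver, pancreas and duodenum. Tnfrsf17, the plasma cell receptor for APRIL, averaged 0.109 ± 0.0617 TPM in liver, 0.132 ± 0.0501 TPM in pancreas and 3.17 ± 0.302 TPM in duodenum (SD, n = 4 each). The order within organs was not the same for both: duodenum 4 had the highest plasma cell sum and the lowest duodenal Irf4. In liver 2, pancreas 3 and pancreas 4, where Igkc was 1277, 1196 and 1358 TPM, Irf4 was at 0.748, 1.33 and 0.633 TPM. Other plasma cell genes there were far under duodenum. Jchain was at 48.6, 59.8 and 89.8 TPM, against 657 to 1141 TPM in duodenum. Igha was at 0.136, 0.802 and 3.30 TPM, against 3207 to 5155 TPM. Tnfrsf17 was at 0.155, 0.104 and 0.207 TPM, against 2.91 to 3.61 TPM. In these 3 libraries the plasma cell sum was mostly Igkc. Without these 3 libraries the log2 difference of Irf4 was -2.57 in liver (edgeR adjusted p = 0.00042) and -2.30 in pancreas (edgeR adjusted p = 0.00232), both minus duodenum. The duodenum libraries all stayed in that fit, so it does not bear on their plasma cell RNA. The part of plasma cell RNA in the Irf4 level of duodenum was not tested.

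**Figure D3:**
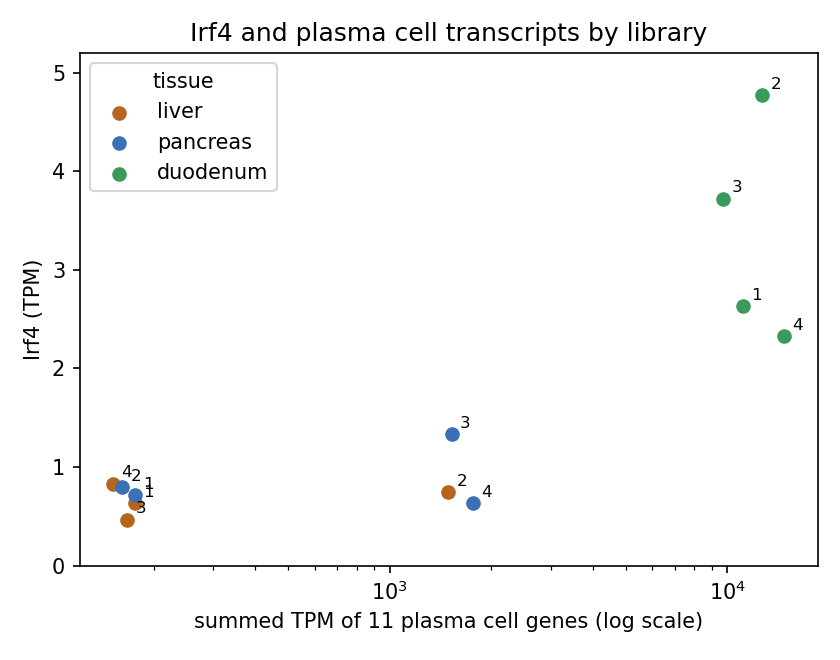
Each point is a library, numbered by replicate, with the summed TPM of 11 plasma cell genes on a log axis and Irf4 in TPM on the other. The duodenum libraries lie at 9750 to 14735 TPM of plasma cell genes with Irf4 at 2.33 to 4.77 TPM, and the 3 liver and pancreas libraries above 1000 TPM have Irf4 at 0.633 to 1.33 TPM. In those 3 libraries the sum is mostly Igkc, and in duodenum it is mostly Igkc and Igha.

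Genes of the cDC2 branch, in which Irf4 is best known, also moved. Of 14 cDC2 markers, 7 were lower and 2 higher in liver than in duodenum, and likewise 7 and 2 in pancreas. Sirpa, the signal-regulatory protein that marks cDC2, was at 0.770, 0.436, 0.971 and 0.575 TPM in liver and 0.365, 0.695, 0.824 and 0.774 TPM in pancreas, against 2.37, 1.36, 4.96 and 3.30 TPM in duodenum. Its ranges in liver and pancreas lay under that of duodenum, but here duodenum 2, the library highest in Irf4, was the lowest. The summed list ran the other way, at 148.2 to 165.4 TPM in liver and 153.0 to 191.3 TPM in pancreas, against 94.8 to 142.6 TPM in duodenum, and it was carried by Ccr2, a chemokine receptor of monocytes and some DCs, with means of 128.9, 140.7 and 12.2 TPM in liver, pancreas and duodenum. No cDC2 marker was at 0 in all libraries of an organ. Genes of DC maturation, a state in which Irf4 can also rise, were higher in the organs with less Irf4: 13 of 17 in liver and 14 of 17 in pancreas against duodenum, with none lower. Their sum was 882.0 to 1495 TPM in liver and 1441 to 2687 TPM in pancreas, against 326.8 to 490.1 TPM in duodenum. What these lists contribute to the Irf4 result was not tested.

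Irf8, the factor that sets the cDC1 fate, was the steadiest of the 10 genes by the ratio of its highest to its lowest library. It was at 642, 654, 651 and 619 TPM in liver and at 567, 568, 590 and 520 TPM in pancreas, against 646, 529, 716 and 645 TPM in duodenum. Liver libraries all lay above pancreas libraries, and duodenum spanned both, with duodenum 2 low. Its coefficient of variation was 2.44% in liver, 5.27% in pancreas and 12.2% in duodenum, and the highest library had 1.38 times the level of the lowest. On TMM-scaled counts Irf8 did not pass in any comparison, with log2 differences of -0.15 ± 0.13 in liver minus duodenum (edgeR adjusted p = 0.620), -0.25 ± 0.13 in pancreas minus duodenum (edgeR adjusted p = 0.318) and 0.10 ± 0.13 in liver minus pancreas (edgeR adjusted p = 0.951). Without duodenum 2 it was called lower in liver (log2 -0.32, edgeR adjusted p = 0.0373) and in pancreas (log2 -0.42, edgeR adjusted p = 0.00833) than in duodenum.

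The balance of the cDC1 and cDC2 factors was read as the ratio of Irf8 to Irf4 within a library. Irf8 exceeded Irf4 by 1018, 874, 1394 and 745 times in the liver libraries and by 790, 712, 443 and 821 times in the pancreas libraries, against 246, 111, 192 and 277 times in the duodenum libraries, as plain ratios of TPM. Every duodenum library was below every liver and pancreas library. For the test 0.5 TPM was added to each gene, which lowers the ratio where Irf4 is low, and the mean log2 ratio was then 9.11 ± 0.22 in liver, 8.70 ± 0.25 in pancreas and 7.40 ± 0.53 in duodenum (SD, n = 4 each). Liver exceeded duodenum by 1.72 and pancreas exceeded duodenum by 1.31, each with an exact two-sided permutation p of 0.0286, the smallest that 4 against 4 libraries allow. Adjusted over the 6 ratio tests made, those exact p-values were 0.0857, which misses 0.05. Liver minus pancreas was 0.41 (exact permutation p = 0.0571, adjusted 0.114). With 0.1 TPM added instead, the differences from duodenum were 2.17 and 1.66, each with the same exact permutation p, and with 1 TPM added they were 1.38 and 1.03. As Irf8 differed little, the ratio restates the Irf4 difference.

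**Figure D4:**
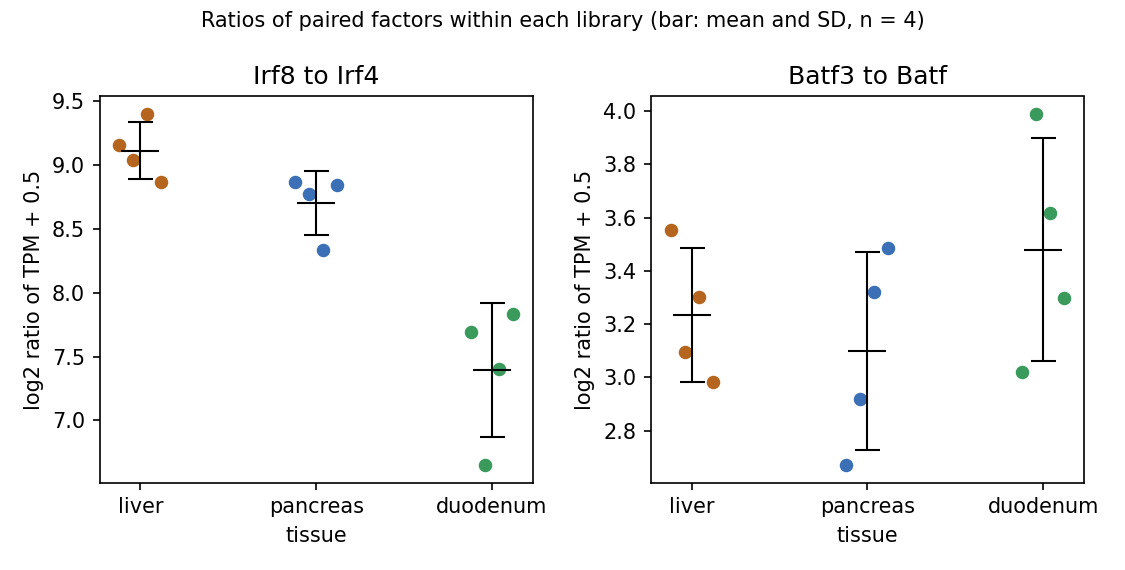
Points are libraries, placed by the log2 ratio of TPM + 0.5 for Irf8 to Irf4 (left) and Batf3 to Batf (right), with the mean and SD of 4 libraries per organ. The Irf8 to Irf4 ratio averages 9.11 in liver, 8.70 in pancreas and 7.40 in duodenum, and the Batf3 to Batf ratios of the 3 organs overlap.

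Batf3 encodes the AP-1 family partner of IRF8 that keeps the cDC1 program on. It was at 162, 164, 179 and 191 TPM in liver and at 126, 140, 173 and 147 TPM in pancreas, against 187, 218, 187 and 174 TPM in duodenum. Pancreas lay wholly under duodenum, by a narrow gap between pancreas 3 and duodenum 4, while liver overlapped both. Pancreas minus duodenum was -0.44 ± 0.15 on the log2 scale (95% interval -0.75 to -0.13) and missed the threshold with an edgeR adjusted p of 0.0900. Of 24 alternative settings, 7 called it, and without pancreas 3 the log2 difference was -0.62 with an edgeR adjusted p of 0.0113. Liver minus duodenum was -0.29 ± 0.15 (edgeR adjusted p = 0.306) and no alternative called it.

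Batf, the relative that can stand in for Batf3 in mice, was lower in level than Batf3 in all 12 libraries. It ran from 13.3 to 23.7 TPM in liver, 12.7 to 19.3 TPM in pancreas and 13.3 to 22.6 TPM in duodenum, so the organs overlapped almost wholly. Its log2 differences lay between -0.10 and 0.05 in the 3 comparisons, with an edgeR adjusted p of at least 0.884. In plain ratios of TPM, Batf3 exceeded Batf by 8.04 to 12.2 times in liver, 6.51 to 11.6 times in pancreas and 8.26 to 16.4 times in duodenum. With 0.5 TPM added to each, the mean log2 ratio was 3.23 ± 0.25 in liver, 3.10 ± 0.37 in pancreas and 3.48 ± 0.42 in duodenum (SD, n = 4 each). No comparison of that ratio passed, with exact permutation p-values of 0.371 for liver minus duodenum, 0.229 for pancreas minus duodenum and 0.571 for liver minus pancreas.

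Nfil3, a bZIP repressor that acts early in cDC1 progenitors and takes part in the circadian clock, was low in all organs. It was at 2.08 to 3.16 TPM in liver, 1.85 to 4.20 TPM in pancreas and 1.74 to 3.28 TPM in duodenum. Pancreas held both the 2 highest libraries and 1 of the 2 lowest in the series, and the ranges overlapped. The widest log2 difference, liver minus pancreas, was -0.45 ± 0.28 (95% interval -1.05 to 0.14, edgeR adjusted p = 0.746). Bcl6, a repressor that supports the cDC1 fate and restrains Prdm1, varied little, with 8.36 to 11.005 TPM in liver, 7.84 to 11.5 TPM in pancreas and 9.01 to 10.8 TPM in duodenum. Its log2 difference was -0.13 ± 0.17 in liver and -0.05 ± 0.17 in pancreas, both minus duodenum, with an edgeR adjusted p of at least 0.771.

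Zbtb46 encodes a zinc finger factor that separates conventional DCs from other myeloid cells. It was at 83.1, 67.6, 69.7 and 67.2 TPM in liver and at 61.2, 77.3, 85.1 and 66.3 TPM in pancreas, against 48.7, 29.6, 53.1 and 51.2 TPM in duodenum. Liver and pancreas both lay above duodenum in TPM, and duodenum 2 was far under the rest. On TMM-scaled counts the log2 difference was 0.48 ± 0.21 in liver minus duodenum (95% interval 0.04 to 0.92, edgeR adjusted p = 0.211) and 0.60 ± 0.21 in pancreas minus duodenum (95% interval 0.15 to 1.04, edgeR adjusted p = 0.105), neither past the threshold. Among the 24 alternatives 5 called it in liver and 6 in pancreas, and without TMM, on library totals alone, the edgeR adjusted p was 0.00599 in liver and 0.00398 in pancreas. The scaling factors were 0.986 to 1.10 in liver, 0.895 to 1.13 in pancreas and 0.887 to 1.09 in duodenum, where 3 of 4 libraries had factors under 1.

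Flt3 encodes the receptor for the cytokine that drives DC development and upkeep. It was at 126, 131, 109 and 102 TPM in liver and at 78.7, 85.7, 86.9 and 86.5 TPM in pancreas, against 83.3, 58.7, 76.2 and 79.7 TPM in duodenum. All 4 liver libraries lay above all libraries of the other organs, while pancreas and duodenum overlapped. Liver minus duodenum was 0.48 ± 0.15 on the log2 scale (95% interval 0.16 to 0.80) with an edgeR adjusted p of 0.0704, and 5 of 24 alternatives called it. Liver minus pancreas was 0.37 ± 0.15 (edgeR adjusted p = 0.416, called by 3 alternatives), and pancreas minus duodenum was 0.11 ± 0.15 (edgeR adjusted p = 0.801).

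Spi1 encodes PU.1, the ETS factor of myeloid cells. It was at 161.7 to 171.3 TPM in liver, 138.0 to 158.2 TPM in pancreas and 119.2 to 187.5 TPM in duodenum. Liver libraries were all above pancreas libraries, and duodenum spanned both because of a low duodenum 2 and a high duodenum 3. No comparison passed, with log2 differences of -0.10, -0.17 and 0.06 for liver minus duodenum, pancreas minus duodenum and liver minus pancreas. Without duodenum 2, Spi1 was called lower in pancreas than in duodenum (log2 -0.37, edgeR adjusted p = 0.0264). Runx3, a Runt factor of DCs and cytotoxic lymphocytes, was at 9.90, 11.3, 14.2 and 10.3 TPM in liver and 17.8, 12.4, 16.3 and 18.4 TPM in pancreas, against 11.2, 12.4, 14.8 and 12.8 TPM in duodenum. Liver was mostly lower than pancreas but the ranges overlapped through liver 3 and pancreas 2. Liver minus pancreas was -0.59 ± 0.18 on the log2 scale (95% interval -0.96 to -0.21, edgeR adjusted p = 0.182), which only the filter on a mean of at least 1 CPM called (edgeR adjusted p = 0.0414).

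In TPM ranges, which rest on no model, liver lay apart from duodenum for 3 of 10 genes (Irf4 lower, Zbtb46 and Flt3 higher), where 15.6% of all genes did so, 11.2% higher and 4.48% lower. Pancreas lay apart from duodenum for 3 of 10 (Batf3 and Irf4 lower, Zbtb46 higher), against 13.6% of all genes, 8.21% higher and 5.34% lower. Liver lay above pancreas for 3 of 10 (Irf8, Spi1 and Flt3), against 4.76% of all genes higher and 7.33% in either direction. On TMM-scaled CPM none of the last 3 held apart, nor did Zbtb46 in pancreas, while Batf3 in liver then lay under duodenum. Apart from Irf4, the largest log2 difference was 0.60, and 25 of the 27 intervals of the other 9 genes lay within a 2-fold change in either direction. The exceptions were Zbtb46 in pancreas minus duodenum and Nfil3 in liver minus pancreas. For these genes the data bound the difference and do not show equality.

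Around the lineage factors, relatives and partners with larger differences were found. Among the relatives of Irf8 and Irf4, Irf7, Irf3 and Irf1 are described. Irf7, the interferon-induced amplifier of type I interferon, averaged 72.6 ± 6.72 TPM in liver, 28.7 ± 4.07 TPM in pancreas and 19.4 ± 9.39 TPM in duodenum (SD, n = 4 each), with a log2 difference of 1.72 ± 0.32 in liver minus duodenum (edgeR adjusted p = 0.00421). Irf3, which starts the interferon response to nucleic acids, was at 0.42 in the same comparison (edgeR adjusted p = 0.0485). It was called by 5 of 24 alternatives (adjusted p up to 0.231 over the edgeR, DESeq2 and limma fits) and lost its call when any library was left out in turn. Irf1, which is induced by interferon-gamma, was lower in pancreas than in duodenum (log2 -0.70 ± 0.17, edgeR adjusted p = 0.0190) and higher in liver than in pancreas (0.98 ± 0.17, edgeR adjusted p = 0.00957). Its averages were 70.6 ± 5.04, 33.3 ± 6.38 and 52.0 ± 6.07 TPM in liver, pancreas and duodenum (SD, n = 4 each). The first of these calls was lost without duodenum 1 or pancreas 2, and when only the 2 organs compared were fitted (edgeR adjusted p up to 0.0695).

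Jun and Junb, which pair with BATF proteins, were lower in liver and in pancreas. Of 4 genes, the 3 Jun genes and the relative Batf2, 3 were lower in liver and 2 were lower in pancreas, each against duodenum, none was higher, and the median log2 difference was -1.83 and -1.45. Junb, an immediate-early AP-1 gene, averaged 148 ± 6.47 TPM in liver and 179 ± 33.3 TPM in pancreas, against 934 ± 143 TPM in duodenum (SD, n = 4 each). Its log2 difference was -2.82 ± 0.16 in liver and -2.46 ± 0.16 in pancreas. Jun was at 21.4 ± 5.27 and 29.7 ± 12.4 TPM, against 138 ± 20.1 TPM in duodenum (log2 -2.86 and -2.31). Jund was lower in liver only by the test (-0.84 ± 0.19, edgeR adjusted p = 0.0137), with -0.59 ± 0.19 in pancreas (edgeR adjusted p = 0.0786). Batf2 was not called, with 0.32 ± 0.41 in liver and 0.14 ± 0.41 in pancreas, both minus duodenum. Batf3 and Batf themselves had log2 differences between -0.44 and 0.15 over the 3 comparisons.

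The other Runt genes were lower away from the gut. Runx1, the Runt factor of blood formation, averaged 19.6 ± 3.43 TPM in liver and 15.7 ± 3.04 TPM in pancreas, against 56.8 ± 5.79 TPM in duodenum (SD, n = 4 each), with log2 differences of -1.69 ± 0.18 and -1.93 ± 0.19. Runx2, which is also on the plasmacytoid DC list, was lower too, at log2 -0.73 ± 0.19 in liver and -1.36 ± 0.19 in pancreas. Its liver call held in 15 of 24 alternatives (adjusted p up to 0.102). It was lost on library totals, with limma on log2(TPM + 0.1) and with unfiltered limma. The same call was lost without liver 1, 2 or 3, duodenum 1 or duodenum 4, and without liver 2, pancreas 3 and pancreas 4 together. Cbfb, the DNA-binding partner shared by Runt factors, was not called, so 2 of 3 genes were lower in each organ. Among 7 ETS genes other than Spi1, 1 was lower in liver and 2 were lower in pancreas, each against duodenum. With a minimum mean of 1 CPM, 26.2% and 26.5% of all genes were called in these comparisons. The ETS counts are near these shares and are no result about the list. Etv6, a repressor, was at -0.90 ± 0.16 in liver and -0.57 ± 0.16 in pancreas. The pancreas call of Etv6 was lost without any of duodenum 1, 3 or 4 or pancreas 1, 2 or 4. It was also lost without liver 2, pancreas 3 and pancreas 4 together, and when only the 2 organs compared were fitted (edgeR adjusted p up to 0.130 over these settings). Ets1, a lymphoid ETS factor, was at -1.18 ± 0.25 in pancreas (edgeR adjusted p = 0.00896).

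**Figure D5:**
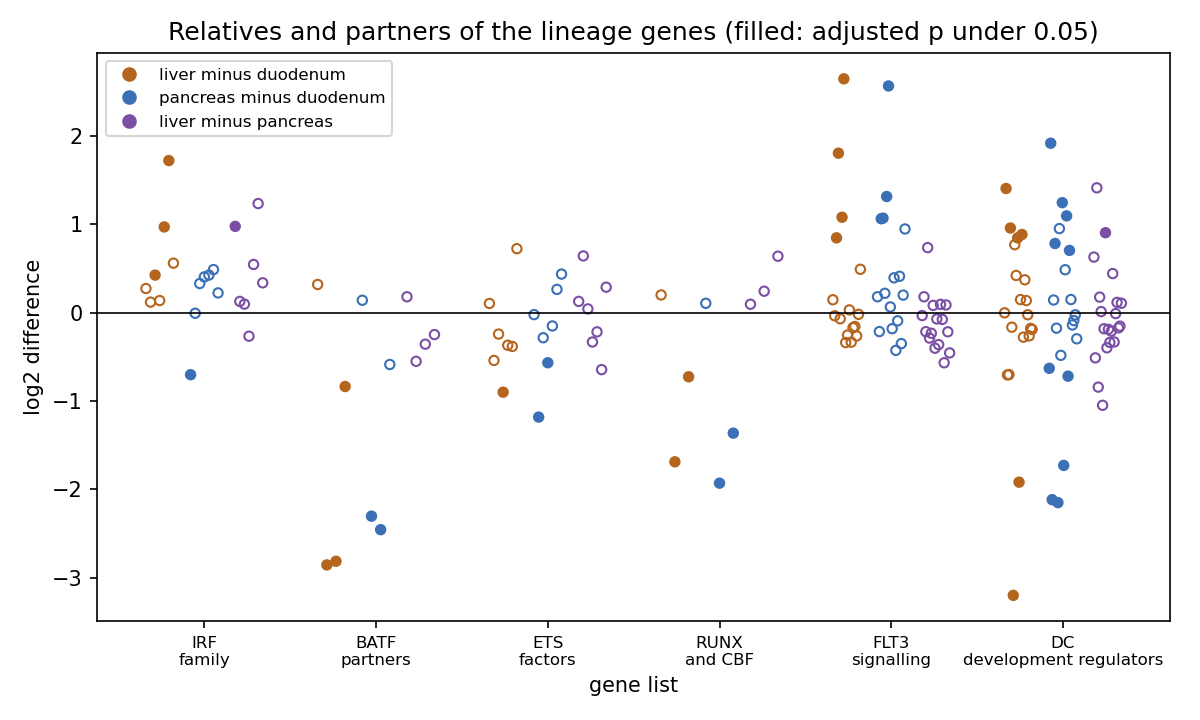
Each point is a gene of a list named on the axis, placed by its log2 difference from the edgeR model, with a colour for each comparison and filled points for an adjusted p under 0.05. Jun and Junb lie at -2.86 to -2.31 against duodenum, Runx1 at -1.93 to -1.69, and Csf2rb2 is the highest point at 2.65.

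Nfil3 belongs to the clock output genes, and 14 clock genes were tested. Of these 4 were lower in liver than in duodenum and none higher, while in pancreas 3 were lower and 1 higher, with medians of -0.20 and 0.13. Of all genes, 7.32% and 7.70% were called in either direction, and 26.2% and 26.5% with a minimum mean of 1 CPM. The clock counts are near the second pair of shares and are no result about the list. Bhlhe40, a clock repressor that DCs and T cells use in cytokine control, averaged 8.96 ± 3.06 TPM in liver, 28.9 ± 6.14 TPM in pancreas and 53.3 ± 14.0 TPM in duodenum (SD, n = 4 each). It was lower in liver than in duodenum (log2 -2.73 ± 0.30) and than in pancreas (-1.78 ± 0.29, edgeR adjusted p = 0.00534), and the call against pancreas was lost without liver 2, pancreas 3 and pancreas 4 (edgeR adjusted p = 0.103). Per1, a core repressor of the clock, was at -2.17 ± 0.28 in liver and -1.24 ± 0.27 in pancreas, both minus duodenum. Cry1 was at -0.98 ± 0.22 and -0.93 ± 0.22, and Bhlhe41 at -2.20 ± 0.34 and -1.35 ± 0.33 on the same comparisons. The pancreas call of Bhlhe41 was lost without pancreas 1, without pancreas 2 and without duodenum 2 and pancreas 1 together. It was also lost with the replicate number as a block (edgeR adjusted p up to 0.0760 over these settings). Without liver 2, pancreas 3 and pancreas 4, the pancreas calls of Per1 and Cry1 were lost too (edgeR adjusted p up to 0.148 and 0.105). That of Cry1 was also lost without duodenum 2 and pancreas 1 together. The labels give no time of day of collection.

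Among 20 other regulators of DC development, 4 were higher and 2 lower in liver than in duodenum, and 5 were higher and 5 lower in pancreas. Of all genes, 7.32% and 7.70% were called in either direction, and 26.2% and 26.5% with a minimum mean of 1 CPM. The liver counts are near the second liver share and are no result about the list. The pancreas counts lie above both pancreas shares, and the list as a set was not tested. Klf4, a zinc finger gene used by a subset of cDC2 and also an immediate-early gene, averaged 7.66 ± 0.715 TPM in liver and 15.1 ± 7.34 TPM in pancreas, against 62.7 ± 9.79 TPM in duodenum (SD, n = 4 each), with log2 differences of -3.20 ± 0.27 and -2.15 ± 0.25. Notch2, a receptor that gut cDC2 and splenic DCs need, ran the other way, at 90.8 ± 3.45 TPM in liver and 112 ± 4.59 TPM in pancreas, against 45.0 ± 6.04 TPM in duodenum (log2 0.85 ± 0.13 and 1.24 ± 0.14). Cebpa, an early myeloid factor, was higher in liver (1.40 ± 0.33, edgeR adjusted p = 0.0177) and pancreas (1.92 ± 0.34). Its liver call was lost without liver 1, 2 or 3 or duodenum 1, and without liver 2, pancreas 3 and pancreas 4 together (edgeR adjusted p up to 0.0820). Prdm1, which encodes the plasma cell repressor BLIMP1 and is also on the plasma cell list, was at 0.171 ± 0.0236 TPM in liver and 0.183 ± 0.0566 TPM in pancreas, against 0.577 ± 0.292 TPM in duodenum. Its log2 differences were -1.92 ± 0.36 and -1.73 ± 0.36. Its pancreas call was lost without liver 2, pancreas 3 and pancreas 4 in edgeR, and with unfiltered limma (adjusted p up to 0.112 over both fits).

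Beside Flt3, genes of its signalling and of sister cytokine receptors were compared. In liver and in pancreas, 4 of 16 were higher than in duodenum and none lower, with medians of -0.03 and 0.21. Of all genes, 7.32% and 7.70% were called in either direction, and 26.2% and 26.5% with a minimum mean of 1 CPM. The counts are near the second pair of shares and are no result about the list. Csf2rb, the shared beta chain of the GM-CSF, IL-3 and IL-5 receptors, averaged 21.0 ± 0.749 TPM in liver and 23.0 ± 4.43 TPM in pancreas, against 8.92 ± 1.33 TPM in duodenum (SD, n = 4 each), with log2 differences of 1.08 ± 0.17 and 1.31 ± 0.18. Csf2rb2, its close copy in mice, was at 2.65 ± 0.16 and 2.57 ± 0.16, and the split of reads between the copies is uncertain. Csf1r, the receptor of macrophage growth factor, was at 1.80 ± 0.23 and 1.07 ± 0.23. It is also on the cDC2 and the macrophage and monocyte lists. Cblb, a ubiquitin ligase that can act on FLT3, was at 0.85 ± 0.20 and 1.06 ± 0.20. Its liver call was lost without liver 2, without duodenum 4, and without liver 2, pancreas 3 and pancreas 4 together (edgeR adjusted p up to 0.0931). Its pancreas call was lost without liver 2, pancreas 3 and pancreas 4 (edgeR adjusted p = 0.0636). Flt3l itself, Grb2, Kit and the other members of this list were not called in any comparison.

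The genes whose profile was most like that of Irf4 were chosen as those with the smallest root mean square difference of centred log2 CPM over the 12 libraries, among 7946 genes with a mean of at least 10 CPM. They were Got1, a cytosolic aspartate aminotransferase (0.382), Ccrl2, a chemerin-binding receptor (0.384), and Slc16a6, a transporter of the monocarboxylate family (0.401). Since they were picked for this pattern, their levels are given without a test. Got1 averaged 17.4 ± 2.63 TPM in liver and 23.8 ± 4.23 TPM in pancreas, against 79.3 ± 13.2 TPM in duodenum (SD, n = 4 each). Ccrl2 was at 4.07 ± 0.577 and 4.58 ± 0.438 TPM, against 18.7 ± 3.20 TPM in duodenum. Slc16a6 was at 5.11 ± 0.732 and 6.05 ± 0.462 TPM, against 21.9 ± 7.05 TPM in duodenum.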

How the data were processed

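RNA of sorted migratory DCs was measured by bulk sequencing in 12 libraries, grouped by the organ in the sample titles. Per the submitters' processing notes, kallisto (no version) and the build GRCm39 were used; for the index, the strandedness and the summary to genes, nothing is given in the sources used here. Estimated counts per gene and TPM were deposited by the authors.

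The deposited estimated counts were rounded and tested with edgeR 4.0.16 (TMM, filterByExpr with a minimum count of 10, robust quasi-likelihood fit without a block, all 12 libraries). Benjamini-Hochberg adjustment ran over 44624 genes, with calls under 0.05; SE is the absolute log2 difference over the square root of F. Ratios of the deposited TPM values (pseudocount 0.5) were compared by exact permutation. P-values measure the spread between pools of 2 mice. Tested on simulated data, the fit recovered nearly all 4-fold and a minority of 2-fold changes. The simulation gave all genes the same fixed dispersion, not fitted to these data, so this recovery does not carry over to the genes here. The 24 alternatives included DESeq2 1.42.0, limma 3.58.1 on log2 TPM and leaving out libraries. The sequences before gene starts are RefSeq's on GRCm38.p6.

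The 10 genes and the 18 gene lists were chosen with earlier results of these data known. Some genes, among them Csf1r, Klf4, Relb, Runx2 and Prdm1, stand on several lists, so the list counts are not independent. Named were all 10 genes, the 3 genes most like each called one, and up to 4 genes per pathway list, by calls and then size. Xcr1, Clec9a, Itgam, Igkc, Igha, Ighm, Jchain, Xbp1, Tnfrsf17, Sirpa, Ccr2, Lyz2, Cd68 and Klrk1 were picked after their values were seen. So were genes named only as not called. Some results of these lists are not reported here.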

Additional observations from a re-analysis of the deposited data

Results flagged for a closer look

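In groups of 4 libraries, a highest or lowest value was marked when its gap to the nearest other value, divided by the range, exceeded Dixon's 95% critical value for 4 values. Of 36 groups examined, 3 were marked, and chance marks about 1 group in 20. Zbtb46 was at 83.1 TPM in liver 1, where the other liver libraries lay between 67.2 and 69.7 TPM (gap over range 0.840). Flt3 was at 78.7 TPM in pancreas 1, under the 85.7 to 86.9 TPM of the other pancreas libraries (0.857). The log2 ratio of Irf8 to Irf4 was 8.33 in pancreas 3, where the others lay between 8.77 and 8.86 (0.830). Pancreas 3 also had the highest pancreatic Irf4, at 1.33 TPM.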

How the results depend on the processing

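The Irf4 calls in liver and pancreas against duodenum held in all 24 alternatives, with log2 differences of -2.64 to -1.36 (adjusted p at most 0.000744) and -2.36 to -1.20 (at most 0.00497). The other genes of the set were called only under some settings. In liver minus duodenum, 3 of the 10 genes were called on library totals, with a mean of at least 1 CPM (fewer genes tested) and in the 3 limma fits, and 2 without duodenum 2 and pancreas 1. In pancreas minus duodenum the count was 2 on library totals, with DESeq2 and without liver 2, pancreas 3 and pancreas 4 (the liver and pancreas libraries with over 1000 TPM of Igkc), and 3 with the 1 CPM minimum, in the limma fits and without duodenum 2 and pancreas 1. Between liver and pancreas it was 1 on library totals, with the 1 CPM minimum and in both filtered limma fits. These settings also called a larger share of all genes, except the unfiltered limma fit and the fit without liver 2, pancreas 3 and pancreas 4. In liver minus duodenum 9.33% of all genes were called on library totals, 26.2% with the 1 CPM minimum, 26.7% and 26.4% in the filtered limma fits, 6.77% in the unfiltered one and 10.95% without duodenum 2 and pancreas 1, against 7.32%. In pancreas minus duodenum these shares were 9.29%, 26.5%, 25.2%, 25.3%, 6.43% and 8.60%, with 16.1% for DESeq2 and 3.63% without liver 2, pancreas 3 and pancreas 4, against 7.70%. Between liver and pancreas they were 1.84%, 5.42%, 5.37% and 5.16% for the settings named, against 1.11%. Leaving out libraries in turn gave 1 to 2, 1 to 3 and 0 to 0 genes for the 3 comparisons.

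Calls over all genes, 3265 in liver minus duodenum, were 5050 with DESeq2, 2069 without liver 2, pancreas 3 and pancreas 4 (fewer samples) and 4913 without duodenum 2 and pancreas 1. In pancreas minus duodenum, 3437 became 1712 without liver 2, pancreas 3 and pancreas 4. Between liver and pancreas, 494 became 820 on library totals, 1153 with DESeq2, 946 with the 1 CPM minimum, 971 and 932 with limma at pseudocounts of 1 and 0.1, 177 without liver 2, pancreas 3 and pancreas 4, and 343 to 749 as libraries were left out, highest without duodenum 2. The share of calls that were higher in liver than in duodenum was 46.0%, but 35.3% with DESeq2 size factors, 63.5% on library totals and 63.3% with limma; in liver against pancreas it was 38.5%, 52.2% on library totals and 57.7% with limma. Library totals moved the median log2 difference of all genes in liver minus duodenum to 0.25, against 0.10 with TMM. The cause of these shifts was not tested.

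Differences that changed sign had passed no test in either form. In liver minus duodenum they became 0.0200 on library totals for Irf8, 0.121 for Batf, 0.0143 for Nfil3, 0.0232 for Bcl6 and 0.0710 for Spi1. With limma (pseudocount 1 with or without a filter, then 0.1) they were 0.0251 and 0.0251 for Irf8, 0.109 and 0.115 for Batf, 0.0146 and 0.0249 for Nfil3, 0.0184 and 0.0196 for Bcl6, and 0.0835 and 0.0841 for Spi1. Bcl6 became 0.0279 in pancreas minus duodenum on library totals, and in liver minus pancreas 0.0196 and 0.0221 with limma and 0.284 without liver 2, pancreas 3 and pancreas 4, where Batf became -0.0523 and Zbtb46 0.0470. Flt3 in pancreas minus duodenum became -0.0384 without liver 2, pancreas 3 and pancreas 4 and -0.00952 without duodenum 2 and pancreas 1. As libraries were left out, the range was -0.244 to 0.121 for Batf in liver minus duodenum, -0.293 to 0.0707 for Batf, -0.0806 to 0.169 for Flt3 and -0.197 to 0.0416 for Bcl6 in pancreas minus duodenum, and -0.0879 to 0.187 for Batf, -0.173 to 0.0164 for Bcl6 and -0.225 to 0.0136 for Zbtb46 in liver minus pancreas.

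The log2 ratio of Irf8 to Irf4 differed by 1.47 to 1.86 in liver minus duodenum and 1.06 to 1.45 in pancreas minus duodenum as libraries were left out, each with an exact permutation p of 0.0571, the smallest that 4 against 3 libraries allow. With a pseudocount of 1, liver minus pancreas was 0.35 (exact p = 0.0286). The Batf3 to Batf ratio in liver minus pancreas ran from -0.00897 to 0.262, lowest without pancreas 1.

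The labels do not say that a replicate number pairs libraries of different organs. Same-numbered libraries deviated together with correlations of -0.0406 to 0.0923 over 12 pairs, against -0.134 to 0.122 over 36 pairs of different numbers. No shared effect of a replicate number was visible. This does not show whether same-numbered libraries came from the same mice, which stays unknown. With the replicate number as a block, all genes called were 2931, 3125 and 436 for liver minus duodenum, pancreas minus duodenum and liver minus pancreas, and the lineage genes called stayed at 1, 1 and 0. The block gave Irf4 -2.42 and -1.999 against duodenum (adjusted p = 0.000686 and 0.00176). An exact sign-flip test within replicate numbers gave the Irf8 to Irf4 ratio differences of 1.72 and 1.31 a p of 0.125, the smallest that 4 pairs allow.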

Other observations

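Markers of other cells that the gate could hold were also compared between organs. Of 10 B cell genes, 1 (Cd79b) was lower in liver than in duodenum and 0 were called in pancreas, where 1 had an unadjusted p under 0.05 and limma, but not DESeq2, called 1. The edgeR test called 0 of 10 T cell genes and 0 of 9 neutrophil and mast cell genes in the 3 comparisons. At an unadjusted p under 0.05 these lists had 1 and 1 genes in liver against duodenum, 0 and 1 in pancreas against duodenum, and 3 and 3 in liver against pancreas. DESeq2 called 1 gene of each list in liver against duodenum, and limma on log2(TPM + 1) called 1 neutrophil or mast cell gene in pancreas against duodenum. Of 10 genes of NK cells and ILCs, 1 (Il7r) was higher in pancreas than in duodenum. Of 14 macrophage and monocyte genes, 2 were higher and 3 lower in liver, and 3 higher and 2 lower in pancreas, both against duodenum. Of 9 plasmacytoid DC genes, 2 were lower in liver, and 1 was higher and 2 lower in pancreas. With a minimum mean of 1 CPM, 26.2% of all genes were called in liver and 26.5% in pancreas against duodenum. Counts in such short lists are no result about the lists. The summed B cell level was 6.25 to 8.43 TPM in liver and 7.38 to 13.2 TPM in pancreas, against 12.9 to 19.7 TPM in duodenum.

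Among the cDC1 markers, 5 were higher and 2 lower in liver than in duodenum, and 5 higher and 4 lower in pancreas. Id2, which works with Nfil3 and Irf8 in cDC1 development, averaged 2313 TPM in liver and 1918 TPM in pancreas, against 1056 TPM in duodenum, and was higher by log2 0.96 and 0.78.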
